A study of Mus musculus with 66 samples.

Results

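The MAPK feedback genes described here are 5 dual-specificity phosphatase genes (Dusp1, Dusp2, Dusp4, Dusp5 and Dusp6) and 3 Sprouty genes (Spry1, Spry2 and Spry4). They were chosen by symbol, with earlier results of these data known, and because in those results Dusp2 and Spry1 were higher and Dusp1 was lower late after OHT. Of the 8 genes, 7 were among the 11513 genes of the deposited tables, and Dusp5 was not analysed here. The changes of Dusp1, Dusp2 and Spry1 from 0 min were selected on these libraries and are given as a description with no test, while Dusp4, Dusp6, Spry2 and Spry4 were tested.

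The study followed RNA in 3T9-MycER fibroblasts from E13.5 mouse embryos, an established line with c-myc flox/flox alleles that was infected in vitro with MycER from a pBabe bleomycin construct. MycER joins Myc to a hormone-binding domain that holds it inactive until 4-hydroxytamoxifen (OHT) is given. Cells received 400 nM OHT for 10, 20 or 30 min or for 1, 1.5, 2, 4, 8, 12 or 16 h, or were taken at 0 min, and each of the 11 times had 3 libraries of labelled RNA and 3 of total RNA. For labelled RNA the cells were exposed to 4-thiouridine (4sU) at 300 µM during 10 min, and RNA that had taken it up, which is mostly newly made, was pulled out through biotin. All groups, the 0 min control included, carry the floxed alleles and MycER. There is no time course without OHT, so OHT and the time elapsed cannot be told apart, and the labels do not say whether the infected cells were a pool or 1 clone.

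As background, receptor tyrosine kinases at the cell surface act through Ras and a chain of kinases to activate the MAP kinase ERK by phosphorylation. The MAP kinases p38 and JNK are phosphorylated by kinase chains of their own. Dual-specificity phosphatases remove that phosphate: the products of Dusp1, Dusp2 and Dusp4 act in the nucleus, and that of Dusp6 acts on ERK in the cytoplasm. Sprouty proteins act further up and inhibit signalling from receptors to Ras and Raf. Many of these genes are transcribed in response to ERK activity itself, and are used as its feedback inhibitors and as its readout. In fibroblasts, serum and growth factors are the usual triggers of this pathway, and Myc is one of its downstream genes.

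The sequences before the starts of Dusp2, Spry1 and Dusp1 are shown because the set was chosen for the courses of these genes. They are from RefSeq (GRCm38.p6) and each had 1 exact match in the mouse genome build mm9, which the study used. They run 5′ to 3′ on the gene's strand and stop before the gene as GENCODE M1 annotates it, which for Dusp1 leaves off the 47 bases nearest the RefSeq start. Capitals mark CACGTG, the E-box that Myc binds with its partner Max, and TGACGTCA, the cyclic AMP response element.
Dusp2, chr2:127161645-127161894, plus strand: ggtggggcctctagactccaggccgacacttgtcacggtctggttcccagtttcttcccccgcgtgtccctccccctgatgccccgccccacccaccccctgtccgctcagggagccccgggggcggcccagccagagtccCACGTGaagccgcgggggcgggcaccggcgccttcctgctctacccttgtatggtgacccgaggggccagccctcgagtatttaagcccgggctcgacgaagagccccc
Spry1, chr3:37538619-37538868, plus strand: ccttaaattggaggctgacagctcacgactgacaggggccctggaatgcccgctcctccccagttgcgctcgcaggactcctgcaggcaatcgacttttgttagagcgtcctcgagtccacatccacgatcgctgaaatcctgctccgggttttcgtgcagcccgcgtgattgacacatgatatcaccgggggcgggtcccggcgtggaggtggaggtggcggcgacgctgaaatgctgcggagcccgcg
Dusp1, chr17:26645465-26645667, minus strand: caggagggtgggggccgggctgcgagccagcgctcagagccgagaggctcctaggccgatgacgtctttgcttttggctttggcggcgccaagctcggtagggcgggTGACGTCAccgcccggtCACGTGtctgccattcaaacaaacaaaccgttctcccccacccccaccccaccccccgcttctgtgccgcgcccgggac

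Within 250 bases before the RefSeq start, CACGTG was found once in Dusp2, with its first base 109 bases before the start, and once in Dusp1, at 126 bases. Spry1, Dusp6 and Spry2 held none in this window. TGACGTCA was found only in Dusp1, at 143 bases, and no CArG box (the serum response factor motif) was found in these 5 genes. Both spelled-out motifs read the same on either strand and do not overlap each other. Of 32851 RefSeq windows of the same length, 6.02% held CACGTG, 1.55% held TGACGTCA and 1.47% held a CArG box. The table held 6 of the 8 genes. Dusp5, which has no expression values here, held 2 CArG boxes, the first at 82 bases, and neither of the other motifs. A match of letters is a description: 1 gene that was higher after OHT and the gene that was lower both had an E-box here, and the other higher gene did not.

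Before OHT the 7 genes covered a wide range of levels. In labelled exons at 0 min, Dusp1 stood at 12.1 ± 1.41 RPKM (mean ± SD, n = 3 libraries) and Spry2 at 10.4 ± 0.677 RPKM, and their libraries overlapped. Dusp6 followed at 4.53 ± 0.365 RPKM, below both and above the other 4 with no overlap. Dusp4 (0.956 ± 0.0767 RPKM), Spry1 (0.823 ± 0.132 RPKM) and Dusp2 (0.794 ± 0.123 RPKM) overlapped each other in turn. Spry4 was lowest at 0.0981 ± 0.0202 RPKM. The median of all genes in this table was 3 RPKM, so Dusp1, Spry2 and Dusp6 lay above it. In total exons Dusp1 was again highest at 23.5 ± 1.1 RPKM, and Spry2 (10.9 ± 1.32 RPKM) and Dusp6 (10.8 ± 1.22 RPKM) overlapped.

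**Figure D1:**
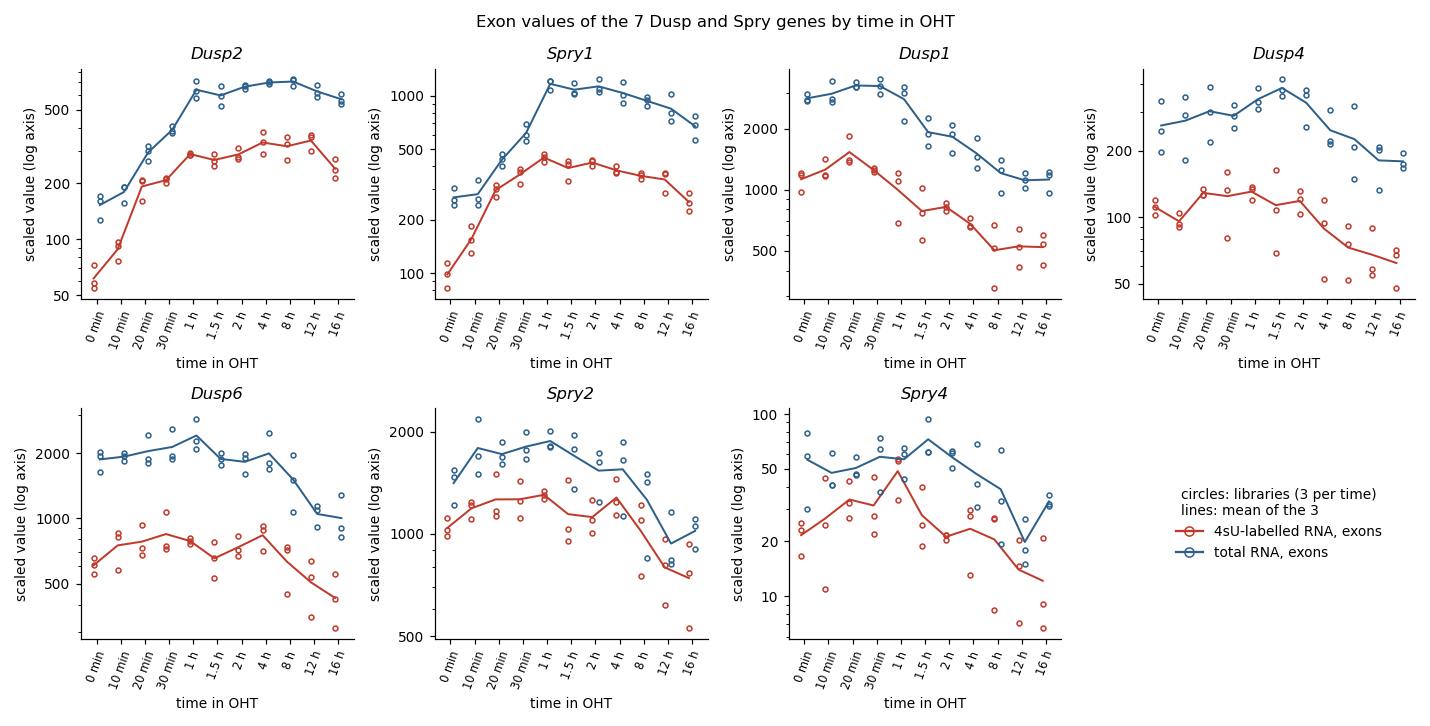
Scaled exon values (log axis) of the 7 genes at each time in OHT, in 4sU-labelled RNA (red) and total RNA (blue). Circles are single libraries, 3 per time, and lines join their means; Dusp2 and Spry1 climb within the first hour, Dusp1 declines from 1.5 h, and Dusp4, Dusp6, Spry2 and Spry4 are lowest at 12 or 16 h.

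Dusp2, a nuclear phosphatase of ERK and p38 known as an immediate-early gene of lymphocytes, lies at chr2:127161895-127164112 (mm9, GENCODE M1) and has 4 exons. Values below are deposited values divided by a library scaling factor and are relative to the bulk of genes in the library. In labelled exons the 3 libraries at 0 min held 58.0, 72.5 and 54.5, those at 10 min 91.9, 76.5 and 97.0, and those at 20 min 162, 207 and 209. At 1 h they held 286, 284 and 293, at 12 h 298, 366 and 357, and at 16 h 270, 237 and 213. The libraries of all 10 OHT times lay above those of 0 min. The log2 change from 0 min was 0.52 ± 0.13 at 10 min (± is the standard error), 1.63 at 20 min and 2.22 at 1 h, which is 4.64-fold, and the highest mean came at 12 h with 2.45.

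Total exons of Dusp2 were set apart from 0 min at a later time than its labelled exons. Its total exons held 171, 160 and 128 at 0 min, 157, 191 and 192 at 10 min and 300, 318 and 264 at 20 min. The groups overlapped at 10 min and were apart from 20 min on, at 9 of the 10 times. The log2 change in total exons was 0.94 ± 0.1 at 20 min, when it was 1.63 in labelled exons, and 2.06 at 1 h, when it was 2.22. The highest mean was at 8 h, with a log2 change of 2.21.

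Spry1, a Sprouty inhibitor of receptor tyrosine kinase signalling, lies at chr3:37538869-37543520 with 2 exons, of which 1 holds the whole coding sequence. Its labelled exons held 99.6, 114 and 82.2 at 0 min, 131, 154 and 184 at 10 min, and 452, 468 and 426 at 1 h. At 16 h they held 282, 224 and 249. The libraries of all 10 OHT times were above those of 0 min. The log2 change was 0.66 ± 0.12 at 10 min, 1.58 at 20 min and 2.19 at 1 h (4.56-fold), its highest, and 1.35 at 16 h. In total exons the values at 10 min (260, 334 and 243) overlapped those of 0 min (242, 301 and 260), and at 1 h they were 1082, 1203 and 1213.

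The 2 genes had like courses up to 1 h and then parted in their order. The highest labelled mean of Spry1 came at 1 h and that of Dusp2 at 12 h. Between 4 h and 16 h both were lower in every library: Dusp2 by −0.47 ± 0.13 and Spry1 by −0.60 ± 0.12 on the log2 scale in labelled exons, and by −0.30 ± 0.1 and −0.63 ± 0.13 in total exons. These 4 differences are not tested, since the 4 h libraries are among those on which the genes were chosen. Over the 11 time means Pearson's r between Dusp2 and Spry1 was 0.94 in labelled exons and 0.97 in total exons. It is a description of points that share libraries and the 0 min control. Both genes were chosen for a rise in these same values, so a high r follows in part from the choice.

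**Figure D2:**
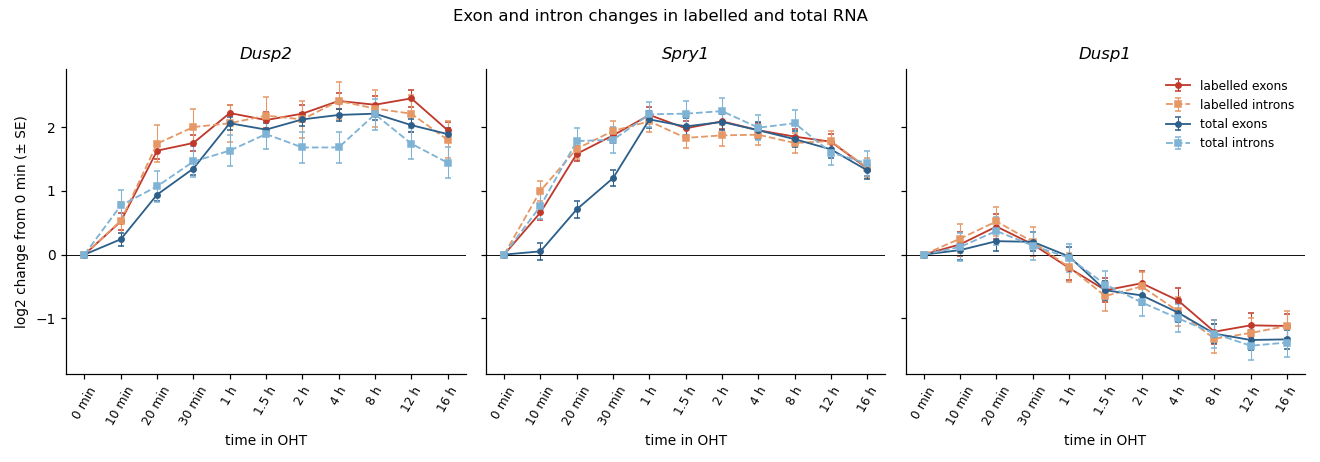
Log2 change from 0 min (± standard error) of Dusp2, Spry1 and Dusp1 against time in OHT, for exons (circles, solid lines) and introns (squares, dashed lines) of labelled (red, orange) and total RNA (blue, light blue). For Dusp2 and Spry1 the curve of total exons lies below the others at 20 min, and for Dusp1 all 4 curves lie below 0 from 1.5 h.

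Introns are removed as RNA matures, so intron values follow unspliced RNA. Labelled introns of Dusp2 were low, with 16.1, 10.9 and 10.3 at 0 min and 58.3, 56.2 and 48.6 at 1 h, a log2 change of 2.06 ± 0.29. Those of Spry1 held 71.4, 66.3 and 46.5 at 0 min and 289, 227 and 270 at 1 h, a change of 2.09 ± 0.16. In total RNA at 20 min Spry1 introns had changed by 1.78 ± 0.2 and its exons by 0.71 ± 0.13. The intron level per length was 68.8% ± 10.6 of the exon level at 0 min and 64.3% ± 9.12 at 1 h in labelled RNA of Spry1 (mean ± SD, n = 3), and 52.9% ± 16.5 and 48.7% ± 7.64 in Dusp2. Exons and introns of both genes were thus higher by like amounts in labelled RNA.

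Dusp1, the phosphatase MKP-1 that acts on p38, JNK and ERK in the nucleus, lies at chr17:26642535-26645464 and has 4 exons. Its labelled exons held 1214, 979 and 1185 at 0 min, 1835, 1366 and 1395 at 20 min, 820.6, 862 and 786 at 2 h, and 595, 543 and 427 at 16 h. The libraries at 20 and 30 min were above those of 0 min, those at 10 min, 1 h and 1.5 h overlapped them, and those from 2 h on were below. The log2 change was 0.44 ± 0.19 at 20 min, −0.45 at 2 h, −0.72 at 4 h and −1.21 at 8 h, its lowest. Its total exons went from 2972, 2749 and 2728 at 0 min to 1223, 1179 and 964 at 16 h, a log2 change of −1.33 ± 0.15, and were below 0 min from 1.5 h on. Labelled introns were lower by −0.89 ± 0.23 at 4 h and −1.12 ± 0.23 at 16 h. The mean intron level per length in labelled RNA was between 43.4% and 47.2% of the exon level at 0 min, 1 h, 4 h and 16 h. The SDs of these means over 3 libraries ran from 3.88 to 11.1, so smaller shifts would not be seen.

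Dusp1 also varied between libraries of the same time. At 1.5 h its labelled exons held 764, 1023 and 567, and at 8 h 514, 669 and 327. With single libraries left out, its labelled log2 change ranged from −1.45 to −0.93 at 8 h and from −1.22 to −0.98 at 16 h.

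**Figure D3:**
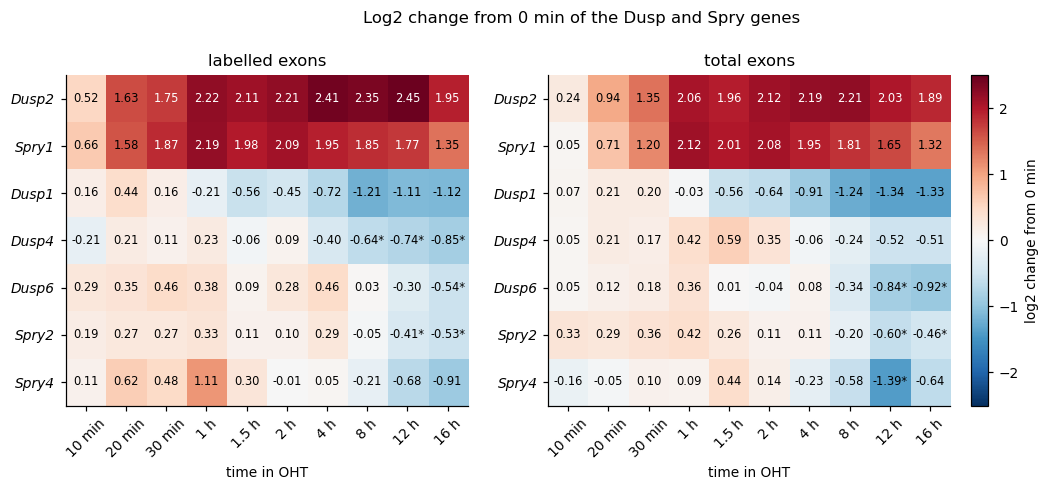
Log2 change from 0 min of the 7 genes (rows) at the 10 OHT times (columns) in labelled and total exons, red for higher and blue for lower. An asterisk marks a limma adjusted p under 0.05, which only Dusp4, Dusp6, Spry2 and Spry4 were given; all asterisks are on falls between 8 h and 16 h.

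Each of the other 4 genes was called lower at a late time in labelled or total exons, and none was called higher in exons at any time. That does not hold under every alternative: with only the 2 groups compared in the fit, rises were called in labelled exons for Dusp6 at 30 min, 1 h, 2 h and 4 h, Spry2 at 30 min, 1 h and 4 h and Spry4 at 1 h, and in total exons for Spry2 at 1 h and Dusp4 at 1.5 h. At 1 h none of the 4 was called in labelled exons by limma (1 had an unadjusted p under 0.05), where 23.3% of all genes were called, and none at 4 h (1 unadjusted), where 38.3% were. In total exons none was called at 1 h (1 unadjusted; 8.71% of all genes) or at 4 h (0 unadjusted; 39.2%). In labelled exons a fall was called for 1 of 4 at 8 h, near the 22.1% of all genes that fell. It was called for 2 of 4 at 12 h (24.3%) and 3 of 4 at 16 h (21.4%). In total exons falls were called for 3 of 4 at 12 h (29.6%) and 2 of 4 at 16 h (29.0%). Dusp4 was called at no time in total exons and Spry4 at no time in labelled exons.

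Dusp6, the cytoplasmic phosphatase of ERK, lies at chr10:98725865-98730122 with 4 exons. Its labelled exons held 612, 653 and 556 at 0 min, 884, 919 and 707 at 4 h, and 551, 426 and 310 at 16 h. The 4 h libraries were all above 0 min and the 16 h libraries all below it. At 4 h the log2 change was 0.46 ± 0.2 (limma adjusted p = 0.0654), and at 16 h Dusp6 fell by 0.54 ± 0.2 (adjusted p = 0.026). Its total exons held 1953, 2035 and 1637 at 0 min and 1285, 906 and 821 at 16 h, a log2 change of −0.92 ± 0.18 (adjusted p = 7.57e-05).

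Spry2, a Sprouty inhibitor like Spry1, lies at chr14:106291166-106296036 with 2 exons and was the second most abundant of the 7 genes in labelled exons. It held 1113, 1029 and 983 at 0 min, 1269, 1339 and 1304 at 1 h, and 931, 765 and 527 at 16 h. The 1 h libraries were above 0 min with a log2 change of 0.33 ± 0.17 (adjusted p = 0.168), and the 16 h libraries were below it, with −0.53 ± 0.17 (adjusted p = 0.00986). In total exons it fell at both 12 h (−0.60 ± 0.19, adjusted p = 0.008) and 16 h (−0.46 ± 0.19, adjusted p = 0.0389).

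Both genes fell between 4 h and 16 h of OHT, a difference that does not use the 0 min libraries. In labelled exons the log2 difference was −0.99 ± 0.2 for Dusp6 (limma adjusted p = 0.000286) and −0.82 ± 0.17 for Spry2 (adjusted p = 0.000396). In total exons it was −1 ± 0.18 for Dusp6 (adjusted p = 7.04e-05) and −0.57 ± 0.19 for Spry2 (adjusted p = 0.0188). Dusp4 and Spry4 were not called, so 2 of 4 fell in each table, against 11.9% of all genes in labelled and 19.3% in total exons. Dusp6 and Spry2 varied together between labelled libraries of the same time (r = 0.92), so their 2 labelled calls are not independent of each other. None of the 4 was called between 1 h and 4 h in labelled exons (2 unadjusted; 12% of all genes, 1383 of 11488) or total exons (0 unadjusted; 29.8%). The falls of Dusp6 from 4 h to 16 h and of Spry2 in labelled exons stayed called when each library was left out in turn; that of Spry2 in total exons was lost without replicate 2 at 16 h or without replicates 1 or 2 at 4 h, with adjusted p up to 0.125.

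Calls of the labelled falls at 16 h depended on single libraries. Without replicate 3 of labelled RNA at 16 h the log2 change was −0.32 for Dusp6 (adjusted p = 0.232), −0.30 for Spry2 (adjusted p = 0.164) and −0.67 for Dusp4 (adjusted p = 0.065). The Dusp6 call was also lost without replicate 1 (adjusted p = 0.0559) or replicate 2 (adjusted p = 0.0848) at 0 min. The fall of Dusp6 in total exons stayed called in each such fit, while that of Spry2 in total exons at 16 h was lost without replicate 2 or 3 at 16 h or replicate 1 or 2 at 0 min (adjusted p from 0.0621 to 0.139). Of the calls at 12 h, that of Spry2 in labelled exons was lost in 5 of 6 such fits, with log2 changes from −0.56 to −0.23, and its total call was lost in none.

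Dusp4, a nuclear phosphatase related to Dusp1, lies at chr8:35870351-35882948 with 4 exons. Its labelled exons held 120, 103 and 111 at 0 min and 71.3, 67.1 and 47.6 at 16 h, a log2 change of −0.85 ± 0.26 (limma adjusted p = 0.00811) with no overlap. It also fell at 8 h (−0.64 ± 0.26, adjusted p = 0.0475), a call lost in 5 of 6 fits without 1 library, kept only without replicate 2 at 8 h. At 12 h it fell as well (−0.74 ± 0.26, adjusted p = 0.0184), a call lost without replicate 1 or 3 at 12 h or replicate 1 at 0 min. In total exons Dusp4 held 246, 335 and 198 at 0 min and 195, 167 and 175 at 16 h, with a log2 change of −0.51 ± 0.25 (adjusted p = 0.0869).

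Introns of Dusp4 were called higher at 30 min and 1 h. Neither its exons nor its intron to exon ratio in labelled RNA was called at these times. In labelled introns it held 168, 143 and 129 at 0 min, 208, 212 and 273 at 30 min, and 273, 286 and 246 at 1 h, and the groups did not overlap. It rose by 0.65 ± 0.24 on the log2 scale at 30 min (limma adjusted p = 0.0304) and by 0.87 ± 0.24 at 1 h (adjusted p = 0.00328), which is 1.83-fold. In total introns it rose by 0.77 ± 0.27 at 30 min (adjusted p = 0.0341) and by 0.76 ± 0.27 at 1 h (adjusted p = 0.0252). Dusp4 was the 1 gene of 4 called in each of these comparisons. Of all genes, 22.2% rose in labelled introns and 15.1% in total introns at 30 min, and 24.8% and 20.3% at 1 h. With 4 genes tested, 1 call is near these shares, so nothing particular to the 4 genes is read from it. In exons at 1 h the change of Dusp4 was 0.23 ± 0.26 in labelled and 0.42 ± 0.25 in total RNA, neither called. Over all genes, too, fewer rises were called in exons than in introns. The shares were 8.02% at 30 min and 13.8% at 1 h in labelled exons, and 0.331% and 5.23% in total exons.

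The labelled intron rise of Dusp4 at 1 h stayed called without each library in turn, with log2 changes from 0.79 to 0.98. That at 30 min was lost without replicate 3 at 30 min or replicates 2 or 3 at 0 min (adjusted p up to 0.141), and the total intron rise at 1 h without replicate 1 at 1 h or replicates 2 or 3 at 0 min (adjusted p up to 0.11). At 30 min the total intron rise was lost without replicate 1 or 2 at 30 min or replicate 2 or 3 at 0 min. With library sums the calls at 30 min were lost in labelled (0.55, adjusted p = 0.0727) and total introns (0.68, adjusted p = 0.0603). The intron to exon ratio of Dusp4 in labelled RNA differed from 0 min by 0.64 ± 0.25 at 1 h (adjusted p = 0.0956). None of the 4 genes was called in that ratio by limma at 30 min, 1 h, 4 h or 16 h (1, 1, 1 and 0 unadjusted), against 16.4%, 11.6%, 1.52% and 0.981% of all genes.

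At 16 h, 2 of the 4 genes fell in labelled introns, against 23.0% of all genes, and 2 of 4 in total introns, against 19.8%. The change of Dusp6 was −0.72 ± 0.22 in labelled introns (limma adjusted p = 0.00757) and −1.05 ± 0.27 in total introns (adjusted p = 0.00179), and both calls were lost without replicate 3 at 16 h of the same kind of RNA (adjusted p = 0.0939 and 0.0597). Spry2 fell by 0.46 ± 0.17 in labelled introns (adjusted p = 0.0283), a call lost without replicate 2 or 3 at 16 h or replicate 1 or 2 at 0 min. Spry4 fell in total introns (−1.72 ± 0.52, adjusted p = 0.00829) on very low values, 13.29, 19.96 and 20.32 at 0 min and 20.01, 1.872 and 1.985 at 16 h. The groups overlapped, and the call was lost without replicate 2 or 3 at 16 h (adjusted p up to 0.0841).

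Spry4, another Sprouty inhibitor, spans 15001 bases with 2 exons and was near the lower end of what the tables can measure. Its labelled exons held 25.1, 23.2 and 16.6 at 0 min, 33.7, 56.9 and 55.2 at 1 h, and 20.8, 9.02 and 6.66 at 16 h. The 1 h libraries were above 0 min, with a log2 change of 1.11 ± 0.45 (limma adjusted p = 0.0676). In total exons it fell at 12 h (−1.39 ± 0.35, adjusted p = 0.00114), from 58.9, 79.1 and 30.2 at 0 min to 15.1, 26.5 and 17.9, and this call stayed without each library in turn. At 16 h its total change was −0.64 ± 0.35 (adjusted p = 0.119).

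No difference between the change in labelled and in total RNA was called for the tested genes, which does not show that the changes are equal. The labelled change minus the total change was called for none of the 4 genes at 1 h, 4 h or 16 h by limma (0 unadjusted at each), against 1.33%, 0.0611% and 0.332% of all genes. The widest such difference was that of Spry4 at 1 h, 1.02 ± 0.59 (adjusted p = 0.527). Dusp6 had 0.38 ± 0.29 at 4 h (adjusted p = 0.888) and 0.39 ± 0.29 at 16 h (adjusted p = 0.805). For the genes not tested, the difference at 1 h was 0.15 ± 0.17 for Dusp2, 0.06 ± 0.19 for Spry1 and −0.17 ± 0.26 for Dusp1. The model for this difference took labelled and total libraries of the same time and number as independent. Their deviations from the time means correlated for Dusp6 (r = 0.74) and Spry2 (r = 0.55), so these standard errors may be too wide. A fit that links such libraries was not run.

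In labelled exons Dusp6 and Spry2 also varied together from library to library within a time. Each library's deviation from the mean of its time was taken on the log2 scale, over 33 libraries per kind of RNA. In labelled exons Pearson's r between the deviations of Dusp6 and Spry2 was 0.92 (permutation p = 1e-05, the smallest that 100000 permutations within times can give) and Spearman's rho 0.90 (permutation p = 1e-05). The adjusted p over the 49 relations computed was 0.00049, and r was 0.89 without the 2 libraries farthest from the median of Dusp6. Spry2 ranked 3 of 11487 genes by this correlation with Dusp6, which over all genes had a median of −0.02 and a 90th percentile of 0.40. In total exons r was 0.51 (permutation p = 0.0252, adjusted p = 0.0598), rho was 0.47 (permutation p = 0.0228), and r was 0.35 without the 2 farthest libraries. Spry2 ranked 187 of 11485 genes there, where the 90th percentile was 0.33. Of the 21 pairs among the 7 genes, 8 had an adjusted p under 0.05 in labelled exons and 7 in total exons, where the highest r was that of Spry2 with Spry4 (0.67, permutation p = 0.00231, adjusted p = 0.0156). The share of all gene pairs that would pass was not computed, so nothing particular to the 7 genes is read from these counts.

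**Figure D4:**
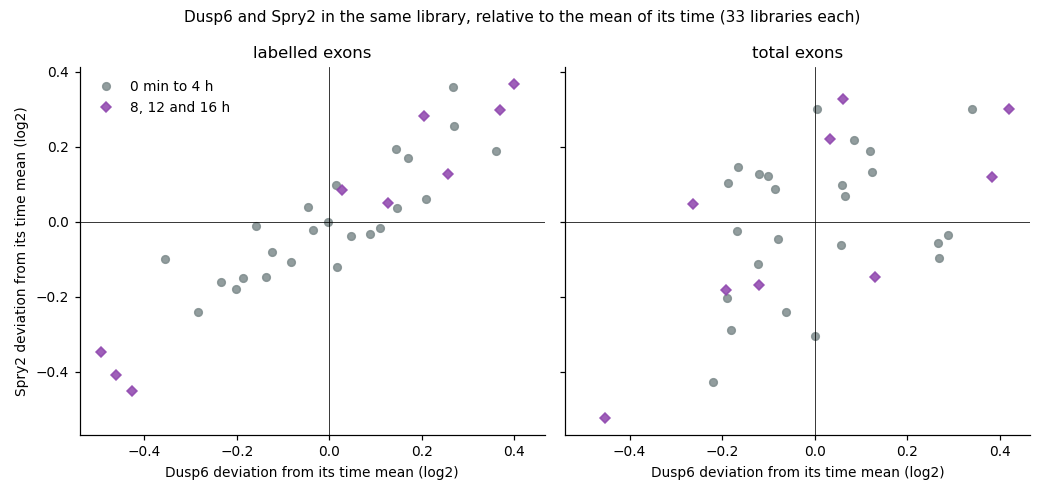
Deviation of Spry2 (y axis) against that of Dusp6 (x axis) from the mean of the library's time, in log2 units, for 33 labelled and 33 total libraries. Diamonds are libraries at 8, 12 and 16 h; in labelled exons the points lie along a line (r = 0.92), with 3 late libraries at the low end, and in total exons they scatter more widely (r = 0.51).

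The labelled libraries farthest below the mean of their own time, for both genes, were replicate 3 at 8 h, replicate 1 at 12 h and replicate 3 at 16 h, where Dusp6 held 448, 349 and 310. The total libraries with the same times and numbers were also the lowest of their groups for Dusp6, with 1073, 914 and 821. For Spry2 the same held in total RNA at 8 h and 12 h but not at 16 h. There replicate 2 was lowest, with a deviation of −0.168, and replicate 3 had 0.048. Between labelled and total libraries of the same time and number, r of the Dusp6 deviations was 0.74 (permutation p = 5e-05, adjusted p = 0.000817; rho 0.74, permutation p = 6e-05; 0.69 without the 2 farthest). For Dusp1 it was 0.64 (permutation p = 0.00468, adjusted p = 0.0191; rho 0.57, permutation p = 0.00695; 0.50 without the 2 farthest). For Spry2 it was 0.55 (permutation p = 0.0114, adjusted p = 0.033; rho 0.53, permutation p = 0.0126; 0.54 without the 2 farthest). Of the 7 genes compared in this way, these 3 had an adjusted p under 0.05. For Dusp2, Dusp4, Spry1 and Spry4 r was 0.07, 0.18, 0.35 and 0.37. The median r over all genes was 0.17, with 10th and 90th percentiles of −0.15 and 0.46. The share of all genes that would pass was not computed. The labels name no culture behind a replicate number, and what the like-numbered libraries share was not tested.

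Genes with the most similar time course were ranked by Pearson's r over the 11 time means in labelled exons among 1027 candidates, as a description. For Dusp2 these were Rasl11a, a Ras-like gene (r = 0.986), the kinase gene Dyrk3 (r = 0.986), Xkr8 (r = 0.983), the Wnt receptor gene Fzd4 (r = 0.983) and the homeobox gene Dlx2 (r = 0.982). Their log2 changes at 1 h lay between 1.59 and 2.11. For Spry1 they were the zinc exporter gene Slc30a1 (r = 0.975), Creb3l3 (r = 0.975), Coro1a (r = 0.960), the kinase gene Sik1 (r = 0.959) and the clock gene Nr1d1 (r = 0.957), with changes at 1 h from 1.1 to 2.75. For Dusp1 they were Bcar3 (r = 0.987), Vsig10 (r = 0.984), Flot1 (r = 0.983), Btg2 (r = 0.983) and the stress gene Gadd45a (r = 0.978), with changes at 16 h from −1.16 to −0.69.

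The rest of the pathway was described by 7 lists of genes, by counts of calls in labelled exons beside the shares of all genes that rose (13.8% at 1 h, 19.4% at 4 h and 22.9% at 16 h) and fell (9.44%, 18.8% and 21.4%). At 1 h the highest count in 1 direction was 6 of 22 p38 and JNK genes that rose, where 2 fell. At 4 h, 7 of 21 other inhibitors of receptor tyrosine kinase and Ras signalling fell, and none rose. Falls were called for 6 of 18 growth factor receptor genes, 6 of 22 p38 and JNK genes and 6 of 28 ERK cascade genes. In these lists 1, 5 and 3 rose. At 16 h more genes fell than rose in each of the 7 lists. The falling share was above that of all genes in 6 of them, though 3 of 11 other phosphatase genes is near it. That of the ERK cascade, 6 of 28, was level with it. The lists were chosen with earlier results of these data known, so their shared direction is a description.

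Of 11 other dual-specificity phosphatase genes tested, 3 rose and 2 fell at 4 h, and 2 rose and 3 fell at 16 h (median log2 change −0.14, against 0.02 for all genes). Dusp3 rose from 765 ± 90.1 to 1205 ± 19.3 at 4 h (mean ± SD, n = 3; log2 change 0.66 ± 0.09, limma adjusted p = 8.4e-07). Dusp7, a phosphatase of ERK like Dusp6, rose from 561 ± 41.7 to 962 ± 33.4 (0.78 ± 0.11, adjusted p = 4.02e-07). Dusp14 fell (−0.35 ± 0.09, adjusted p = 0.00307). The falling count at 4 h was 1 without replicate 1 at 4 h, and the rising count at 16 h was 1 without replicate 3 at 16 h or replicate 2 at 0 min.

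Among the 21 other inhibitors of receptor tyrosine kinase and Ras signalling tested, none rose and 7 fell at 4 h, and none rose and 13 fell at 16 h (median −0.31, all genes 0.02). The count at 4 h was 4 without replicate 2 at 4 h or without replicate 1 or 2 at 0 min. Nf1, which switches Ras off, had a log2 change of −0.47 ± 0.08 at 4 h (limma adjusted p = 1.77e-05) and −0.52 ± 0.08 at 16 h. Spred3, a relative of the Sprouty genes, had −0.55 ± 0.15 at 4 h (adjusted p = 0.00393). Rgs4, an inhibitor of G protein signalling, fell from 518 ± 93.3 to 281 ± 87.6 at 4 h (log2 change −0.91 ± 0.21, adjusted p = 0.000658) and to 227 ± 55.2 at 16 h.

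The ERK cascade itself, with 28 genes tested, had 3 genes that rose and 6 that fell at 4 h and 4 that rose and 6 that fell at 16 h (median −0.07). The ERK-activated kinase genes Rps6ka1 and Mknk1 rose at 4 h by 0.68 ± 0.17 (limma adjusted p = 0.00156) and 0.47 ± 0.10 (adjusted p = 0.000314), and the adaptor gene Crkl fell (−0.31 ± 0.08, adjusted p = 0.0019). The falling count at 4 h was 3 without replicate 1 or 2 at 0 min and 10 with no further scaling, and the rising count at 16 h was 2 without replicate 2 at 16 h, and 2 with no further scaling. In the p38 and JNK cascades, 5 of 22 rose and 6 fell at 4 h, and 3 rose and 9 fell at 16 h (median −0.13). The falling count at 4 h was 3 without replicate 2 at 4 h. Gadd45g, an activator of p38 and JNK signalling, had a log2 change of −0.80 ± 0.17 at 4 h (adjusted p = 0.000309) and −1.93 ± 0.17 at 16 h. The kinase gene Map3k3 fell at 4 h (−0.41 ± 0.07, adjusted p = 2.24e-05), and the JNK gene Mapk9 rose by 0.36 ± 0.08 (adjusted p = 0.000357).

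**Figure D5:**
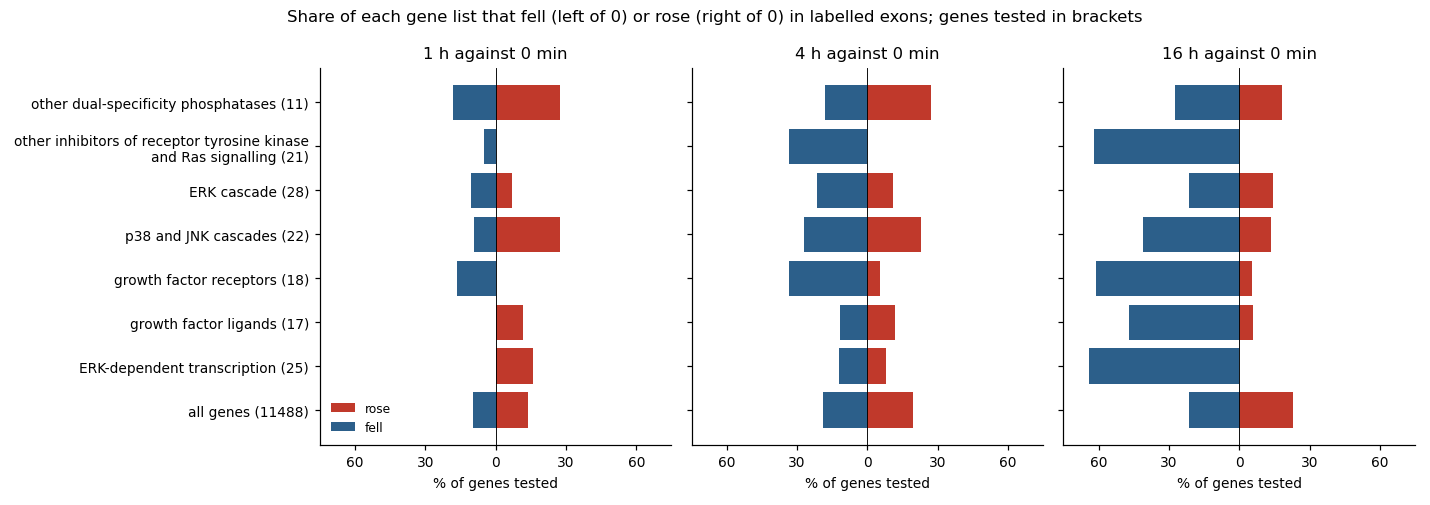
Percent of the tested genes of each list that fell (blue, left of 0) or rose (red, right of 0) in labelled exons at 1, 4 and 16 h against 0 min (limma adjusted p under 0.05), with the number tested in brackets and all 11488 genes in the bottom row. At 16 h the falling share is widest for ERK-dependent transcription (16 of 25), the other inhibitors (13 of 21) and growth factor receptors (11 of 18).

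Growth factor receptor genes fell at 16 h in 11 of 18 cases and rose in 1 (median −0.50). The log2 change of Pdgfra was −0.70 ± 0.08 at 4 h (limma adjusted p = 1e-08) and −0.91 ± 0.08 at 16 h, and that of Met −0.46 ± 0.06 (adjusted p = 4.42e-07) and −1.05 ± 0.06. Fgfrl1, a receptor without a kinase domain, had −0.76 ± 0.13 (adjusted p = 8.83e-06) and −1.19 ± 0.13. Growth factor genes fell in 8 of 17 cases at 16 h and rose in 1 (median −0.65). Nrg1 had −0.27 ± 0.09 at 4 h (adjusted p = 0.0177) and −1.04 ± 0.09 at 16 h, and Gdnf −0.24 ± 0.09 (adjusted p = 0.0362) and −0.65 ± 0.09. Vegfa rose at 4 h (0.47 ± 0.10, adjusted p = 0.000161) and fell at 16 h (−0.29 ± 0.10, adjusted p = 0.0137). Of the 2 that fell at 4 h, 1 was called when any library but replicate 3 at 4 h was left out. The 1 rising growth factor gene at 16 h was not called without replicate 1 at 16 h or with a filter of at least 50 in 3 libraries.

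The list named ERK-dependent transcription also holds genes of transcription factors that carry it out, such as Elk3. It is therefore not a measure of ERK activity. Of its 25 genes tested, 4 rose and none fell at 1 h, and 2 rose and 3 fell at 4 h. At 16 h none rose and 16 fell (median −0.67, all genes 0.02). Ccnd1, the gene of cyclin D1, rose from 3494 ± 174 to 4508 ± 48.4 at 4 h (0.37 ± 0.08, limma adjusted p = 0.000303) and fell to 2271 ± 237 at 16 h (adjusted p = 3.78e-08). Fosl2 had −0.34 ± 0.09 at 4 h (adjusted p = 0.00252) and −0.67 ± 0.09 at 16 h, and Elk3 −0.23 ± 0.07 (adjusted p = 0.00909) and −0.66 ± 0.07. The rising count at 4 h was 1 without any single 0 min library, with library sums, no further scaling, median of ratios, RPKM or no variance trend, and 4 with the replicate block or with only the 2 groups in the fit, and the falling count was 5 without replicate 2 at 4 h. In total exons at 16 h, 14 of the 25 fell and none rose, 12 of 18 receptor genes fell and 1 rose, and 13 of 21 other inhibitors fell and 1 rose, where 29.0% of all genes fell and 26.9% rose. Of the other lists, 9 of 17 growth factor genes fell and 4 rose, 11 of 22 p38 and JNK genes fell and 6 rose, 4 of 11 phosphatase genes fell and 2 rose, and 5 of 28 genes of the ERK cascade fell and 5 rose.

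At 16 h some fibroblast markers were lower as well. Of 10 markers listed, 9 were in the tables, and their summed level in total exons was 4640 to 5060 RPKM at 0 min, 4400 to 4480 at 4 h and 2820 to 2930 at 16 h. Most of the sum was Vim (a mean of 2190 RPKM at 0 min and 1280 at 16 h) and S100a4 (2240 and 1340 RPKM). Col1a1, Col1a2, Pdgfra and Pdgfrb were lower too, while Col3a1 (24.7 and 24.4 RPKM), Prrx1 (20.9 and 21.9 RPKM) and Twist1 (11 and 9.38 RPKM) differed little. Of 13 lymphoid and myeloid markers 5 were in the tables, with sums of 2.65 to 2.87 RPKM at 0 min and 4.47 to 4.69 at 16 h, and Ptprc, which defines blood cells, stood at 0.043 RPKM at 0 min. The 1 endothelial marker in the tables of 5 listed, Pecam1, stood at 0.0464 RPKM, none of 6 epithelial markers was in the tables, and 2 of 4 neural markers, Nes and Tubb3, summed to 89.4 to 98 RPKM at 0 min and 87.9 to 93.8 at 16 h. Within that sum the mean of Nes went from 85.6 to 68.3 RPKM and that of Tubb3 from 7.19 to 23.4 RPKM. The part of these changes in the late falls of the feedback genes was not tested, and in bulk samples fewer cells of a type and less RNA per cell cannot be told apart.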

How the data were processed

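The 66 libraries were grouped by the RNA kind and time in the sample titles. Nothing in the labels ties a replicate number to its own culture, so the p-values rest on a spread that could be purely technical. Per the submitters' processing notes, TopHat2 2.0.8, TopHat and mm9 were used, with no role stated. How reads were counted (tool, annotation, strand) is not given in the sources used here, and no other annotated gene overlaps the members in GENCODE M1. The authors deposited exon and intron tables of 11513 genes. The values deposited as counts are rescaled whole numbers, so they were taken as a score to which count tests were not applied, and read depth is unknown. Per library they summed (in units of 1e+06) to 11.62 to 14.12 in labelled exons and 46.5 to 52.72 in total exons. In the RPKM tables, also deposited by the authors, each gene's values are multiplied by a constant.

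Libraries of a table were brought to a common scale by trimmed log ratios (30% of ratios and 5% of levels trimmed at each end). The filter asked for 10 or more in 3 libraries, which all 7 members passed. In limma 3.58.1, log2(scaled value + 1) was modelled by 1 mean per time over the 33 libraries (R 4.3.3, variance trend, two-sided), with Benjamini-Hochberg adjustment over all genes kept and a threshold of 0.05. Fold changes are on that scale, which understates the change of low genes. The script was tested on simulated data. The intron to exon ratio used a pseudocount of 2 and genes with a mean of at least 20 in both tables. Between-time differences of Dusp2 and Spry1 had been planned as tests and are given without p.

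The members and lists were chosen with earlier results of these data known. Named genes are the members, up to 3 genes per list with the smallest p in labelled exons at 4 h among those called with a mean of at least 50, and the 5 genes most like each of Dusp2, Spry1 and Dusp1 (mean of at least 50, log2 range of at least 1). Alternatives covered scaling, unit, pseudocount, filter, samples in the fit, variance model, replicate number and left-out libraries.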

Additional observations from a re-analysis of the deposited data

Results flagged for a closer look

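A test between OHT times set 16 h apart from 4 h for Dusp6 and Spry2. In labelled exons the log2 difference was −0.99 for Dusp6 (limma adjusted p = 0.000286) and −0.82 for Spry2 (adjusted p = 0.000396), and in total exons it was −1 for Dusp6 (adjusted p = 7.04e-05) and −0.57 for Spry2 (adjusted p = 0.0188). All 3 libraries at 16 h were below all 3 at 4 h in each of these comparisons. The Spry2 call in total exons was lost without replicate 2 at 16 h or without replicate 1 or 2 at 4 h (limma adjusted p up to 0.125). Of all genes, 11.9% fell in labelled and 19.3% in total exons. The groups of 3 libraries are too small for a test of single outlying libraries.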

How the results depend on the processing

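Numbers of all genes called (at 4 h and 16 h in both kinds of RNA, and at 1 h in labelled RNA) stayed within 1.5 times under every alternative run, and no called change of the 4 tested genes turned its direction. With only the 2 groups compared in the fit, calls were added in labelled exons for Dusp6 (0.38), Spry2 (0.33) and Spry4 (1.11) at 1 h and for Dusp6 (0.46) and Spry2 (0.29) at 4 h, and in total exons for Dusp4 at 16 h (−0.51). The same fit added calls in labelled exons for Dusp6 at 30 min (0.46) and 2 h (0.28) and Spry2 at 30 min (0.27), in total exons for Spry2 at 1 h (0.42) and Dusp4 at 1.5 h (0.59), and others between OHT times and in introns. Spry4 at 1 h was also called with RPKM + 0.1 (0.68), RPKM + 1 (0.15) and value + 5 (0.99). Dusp6 at 16 h in labelled exons was not called with RPKM + 1 (−0.42, adjusted p = 0.0545) or with no variance trend (−0.54, adjusted p = 0.0609), nor was Spry2 at 16 h in total exons with library sums (−0.44, adjusted p = 0.0531) or no variance trend (−0.46, adjusted p = 0.056). The cause was not tested.

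The check of replicate numbers between each OHT time and 0 min did not show that they pair the libraries. Correlations of same-numbered libraries over all genes ranged from −0.214 to 0.201 in labelled and −0.24 to 0.214 in total exons, every pair was over 0.1 in 0 of 10 and 1 of 10 comparisons (total exons at 4 h), and every library correlated best with its own number in 1 and 4 of 10. With the replicate block, calls were added for Spry4 at 1 h (1.11, adjusted p = 0.0489) and Dusp6 at 4 h (0.46, adjusted p = 0.047) in labelled exons, and for Dusp4 in total exons at 1.5 h (0.59, adjusted p = 0.0374), 12 h (−0.52, adjusted p = 0.0293) and 16 h (−0.51, adjusted p = 0.0336). One was also added for Spry2 in total introns at 16 h (−0.43, adjusted p = 0.0468). Leaving out each library in turn gave, in labelled exons, 0.38 to 0.57 for Dusp6 at 4 h and, at 16 h, −0.96 to −0.67 for Dusp4, −0.73 to −0.32 for Dusp6, −0.71 to −0.30 for Spry2 and −1.35 to −0.59 for Spry4. In total exons at 16 h it gave −0.68 to −0.31 for Dusp4, −0.57 to −0.38 for Spry2 and −1.02 to −0.34 for Spry4. Calls appeared without replicate 3 at 4 h for Dusp6, without replicate 1 at 16 h for labelled Spry4, and without replicate 3 at 0 min for total Dusp4 and Spry4. The alternatives for introns and for lists at 16 h were chosen after seeing the data. With RPKM + 1 the log2 changes of Dusp2 and Spry1 were smaller, 1.04 and 1.14 in labelled exons at 30 min, since that pseudocount is large beside their 0 min level. Low values limit Spry4 most.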
